A study of Mus musculus with 3 samples.

Results

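Dividing and non-dividing cells of the hair placode were compared in the back skin of mouse embryos at E14.5, the day of gestation given in the labels. A placode cell was defined as one with at least 4 UMIs (unique molecular identifiers, each standing for 1 captured RNA molecule) of Dkk4, Edar, Fgf20, Bmp2 and Ltb together per 10000 UMIs, and with few UMIs of Krt1, Krt10 and Krtdap, which mark the upper epidermal layers. Of 4683 cells, 1205 met this rule. Among them, 524 cells with at least 5 UMIs of Mki67 and Top2a together were called cycling, and 182 cells with no UMI of Mki67, Top2a or Ccnb1 were called non-cycling. The other 499 placode cells lay in between and are described only where named.

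Hair placodes are small thickenings of the embryonic epidermis from which hair follicles grow. Wnt and ectodysplasin signals set them up, and their cells then send Shh, Fgf and Wnt signals to the dermis below. Mki67 encodes the proliferation antigen Ki-67, Top2a encodes the topoisomerase that untangles replicated DNA, and Ccnb1 encodes cyclin B, which drives entry into mitosis. Their transcripts build up from S phase to mitosis and are low in G1 and in cells that have left the cycle, so the absence of these UMIs does not separate a cell in G1 from one that has stopped dividing.

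All cells came from wild-type embryos of strain C57BL/6JOlaHsd, with the epithelial sheets of 3 to 4 littermates pooled for a sample. They were sorted alive either as total epithelium (1 library) or by the surface antigen MAdCAM-1, which is present on placode cells (2 placode-enriched libraries, given by the submitters as biological replicates). The number of libraries, not of cells, therefore limits the precision of each comparison.

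The libraries held 1601, 1511 and 1571 cells in the order total epithelium, placode-enriched 1 and placode-enriched 2, which is kept in every list of 3 values here. The median cell had 21975, 21642 and 23419 UMIs. Pairs of libraries shared 1, 1 and 2 cell barcodes. Placode cells numbered 107, 539 and 559. Of the placode marker genes that the rule did not use, Shh, Lhx2, Wnt10b, Sp5, Trps1 and Madcam1 were each higher in placode cells than in other cells in 3 of 3 libraries, among cycling and among non-cycling cells alike. The remaining one, Foxi3, was at most 2.91 CPM (counts scaled to a fixed total), and was higher in 3 of 3 libraries among cycling cells and in 1 of 3 among non-cycling cells. Of the basal markers, Krt5, Krt14, Krt15, Col17a1 and Itgb4 were lower in 3 of 3 libraries in both states. Trp63 and Itga6 were lower in 3 of 3 among cycling cells, but among non-cycling cells Trp63 was higher in 2 of 3 and Itga6 in 1 of 3. Of the suprabasal markers outside the rule, Calml3 was higher in 3 of 3 libraries in both states. Sbsn, Dmkn, Ovol1 and Cnfn were higher in at most 1 of 3.

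Cycling cells were the larger group in each library. In the total epithelium library 44 placode cells were cycling and 12 were non-cycling. The placode-enriched libraries each held 240 cycling cells, beside 75 and 95 non-cycling cells. The median cycling cell carried 17.5, 22 and 25.5 UMIs of Mki67 and Top2a. At the limit, 0, 18 and 19 placode cells had 4 UMIs and so stayed outside, and 1, 13 and 9 had 5 and so were inside. Limits farther off changed the groups more: with a limit of 3 UMIs 51, 296 and 296 placode cells were cycling (47.7%, 54.9% and 53.0%), and with a limit of 10 UMIs 35, 195 and 201 (32.7%, 36.2% and 36.0%).

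**Figure D1:**
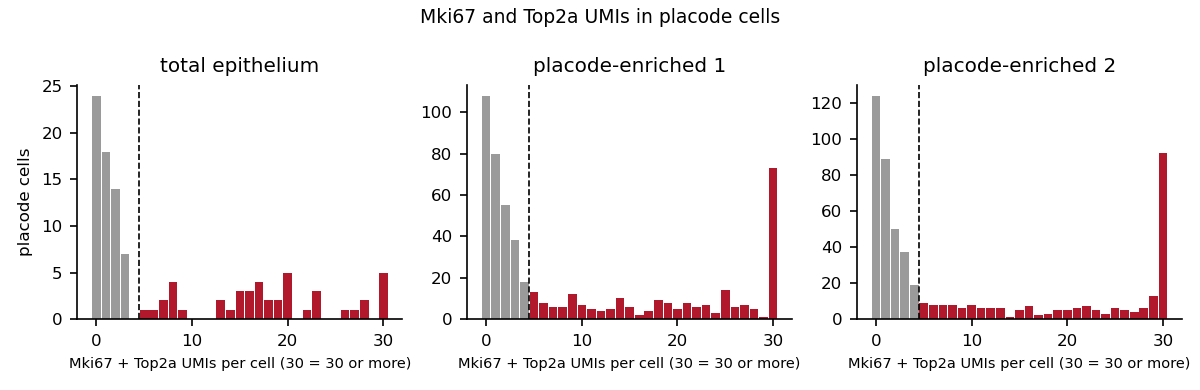
Number of placode cells (vertical) by their summed Mki67 and Top2a UMIs (horizontal; the last bar holds cells with 30 or more), 1 panel per library, with its own vertical scale. Red bars right of the dashed line are cells called cycling. Next to the line lie 0, 18 and 19 cells at 4 UMIs, and 1, 13 and 9 at 5 UMIs. In the placode-enriched libraries the counts fall across the line without a gap.

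Of the placode cells, 41.1% (95% exact binomial interval 31.7 to 51.0), 44.5% (40.3 to 48.8) and 42.9% (38.8 to 47.2) were cycling. Non-cycling cells made up 11.2% (5.93 to 18.8), 13.9% (11.1 to 17.1) and 17.0% (14.0 to 20.4). The intervals, which cover counting error only, overlap between the libraries for both shares. The share cycling also showed no common order along the placode score: from 4 to 8, 8 to 16 and at least 16 UMIs of the 5 placode genes per 10000, it was 52.3%, 29.2% and 35.9% in the total epithelium library. In the placode-enriched libraries it was 44.9%, 42.7% and 46.1%, and 38.7%, 47.6% and 42.0%.

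Other epidermal cells with a placode score under 1 and the same limit on upper-layer genes were used for comparison. In the placode-enriched libraries these cells had also passed the sort by MAdCAM-1, so they are not a sample of all epidermis outside the placode. Madcam1 stood at 1.33, 15.4 and 13.3 CPM (counts scaled to a fixed total) in the cycling ones. Of the other cells, 44.4%, 59.5% and 61.8% were cycling. The share in placode cells was 3.23, 15.0 and 18.9 percentage points lower in the 3 libraries, a mean difference of -12.4 (SD 8.14, n = 3). An exact two-sided sign-flip permutation test gave p = 0.25, the smallest value that 3 libraries allow. Placode cells also had fewer UMIs: the median cycling cell had 24504, 26570 and 26948 UMIs in the placode and 27448, 30527 and 32177 outside it. When every cell was thinned to 10000 UMIs, 21, 63 and 63 shallower cells were left out. The whole rule was applied anew to the thinned counts, so the cells compared changed. Placode cells then numbered 116, 558 and 557, and other cells 773, 302 and 378 in place of 974, 430 and 534. The share cycling was 35.3%, 34.2% and 36.3% in placode cells and 29.2%, 43.7% and 52.6% in other cells. The mean difference was -6.58 points (exact permutation p = 0.5). Among cells with 15000 to 30000 UMIs the mean difference was 0.73 points (exact permutation p = 1). The differences there were 5.22, -1.71 and -1.32 points, so the share was lower in 2 of 3 libraries and by little. This range left out many cycling cells, and a larger part of them outside the placode. Outside it, 292, 109 and 97 of 432, 256 and 330 cycling cells remained, and in it 32, 157 and 133 of 44, 240 and 240. The size of the difference thus depended on how depth was handled and on which cells were kept. The share non-cycling also changed with depth. Unthinned, it was 8.21%, 8.14% and 9.18% in other cells, lower than in placode cells in each library. After thinning it was 23.3%, 20.6% and 24.2% in placode cells and 17.9%, 15.9% and 16.7% in other cells. The same permutation test gave p = 0.25 in both settings. Among cells with 15000 to 30000 UMIs the share was higher in placode cells only in placode-enriched library 2 (18.4% against 14.1%).

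**Figure D2:**
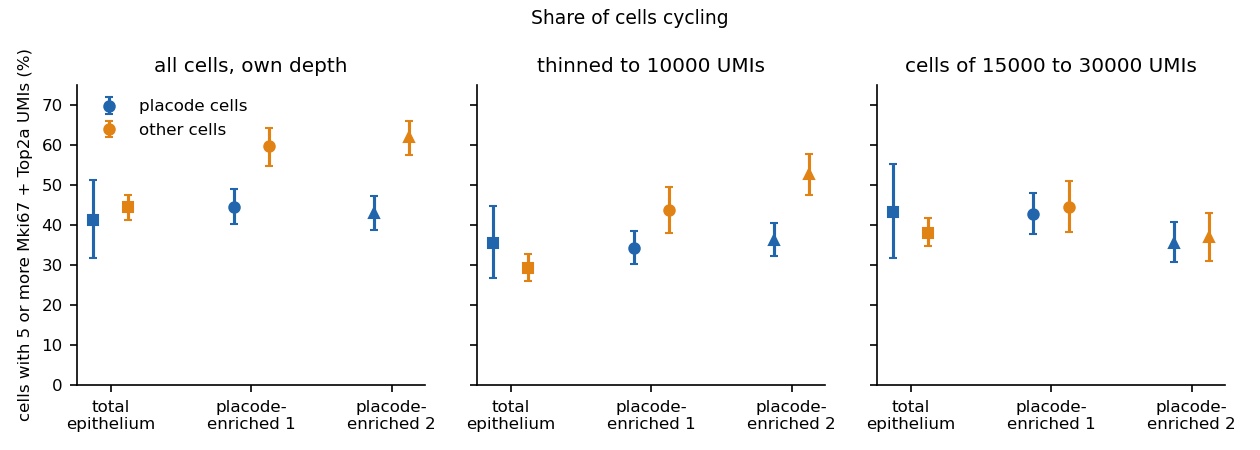
Percent of cells called cycling among placode cells (blue) and other cells (orange) in each library, with exact binomial 95% intervals, for all cells at their own depth, for cells thinned to 10000 UMIs and for cells of 15000 to 30000 UMIs. Placode cells lie at 41.1%, 44.5% and 42.9% against 44.4%, 59.5% and 61.8% at their own depth. After thinning they lie at 35.3%, 34.2% and 36.3% against 29.2%, 43.7% and 52.6%. The groups lie closer together in the last panel, whose depth range leaves out a larger part of the cycling cells outside the placode than in it.

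Cycling placode cells held more UMIs than non-cycling ones. The rule counts raw UMIs, so it favours deeply captured cells as cycling and shallow cells as non-cycling. Part of this difference can therefore follow from the rule, and how much was not tested. The mean total was 1.77, 1.74 and 1.60 times as many UMIs per cell, with medians of 24504, 26570 and 26948 in cycling cells and 14686, 15074 and 17238 in non-cycling cells. With a cycling limit scaled to depth, 2.5 UMIs per 10000, the medians of cycling cells were 24504, 26336 and 26516. The limit for non-cycling cells was not scaled. All gene levels are therefore given as CPM, counts of the summed cells of a library and state scaled to one fixed total, so that a level is a share of the RNA and not an amount per cell. The groups also differed little in placode score in the placode-enriched libraries (medians of 11.8 and 11.4 in cycling against 11.0 and 10.2 in non-cycling cells). In the total epithelium library the medians were 7.78 and 16.7.

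Of 8391 genes tested on these sums, 866 were higher in cycling cells (10.3%) and 606 were lower (7.22%) at an adjusted p under 0.05 in edgeR's quasi-likelihood test. Most changes were small: 310 of the higher and 39 of the lower genes differed by more than 2-fold. The median log2 difference was 0.67 among genes called higher and -0.47 among genes called lower. With DESeq2 the counts were 365 and 79, and without pairing the sums by library they were 389 and 62. Leaving out placode-enriched library 1 or 2 gave 520 and 221, or 482 and 181. The test had 2 residual degrees of freedom, so the counts depend on how the spread is estimated.

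The genes that chose the cells set the scale. Top2a (GRCm38, chromosome 11, 98992943 to 99024189) stood at 565, 634 and 707 CPM in cycling cells and was not seen in non-cycling cells, by the rule. Against a floor of 3 UMIs per library, this was at least 33.0-fold, 235-fold and 373-fold higher. Mki67 (chromosome 7, 135689784 to 135716361) stood at 144, 235 and 260 CPM, and Ccnb1 (chromosome 13, 100778650 to 100786570) at 239, 288 and 217 CPM, each with no UMI in non-cycling cells. These values describe the rule and are not a result. The placode genes of the rule were present in both groups. The Wnt inhibitor Dkk4 had 668, 805 and 628 CPM in cycling and 725, 570 and 495 CPM in non-cycling cells, lower in the total epithelium library and higher in the other two. Ltb, a cytokine gene of the lymphotoxin family, had 181, 398 and 363 CPM against 811, 494 and 390 CPM. The log2 differences of the other members were -0.27 for Edar, the ectodysplasin receptor, -0.14 for Fgf20, a signal to the dermis, and -0.01 for Bmp2.

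The 61 further genes of G2 and mitosis followed the rule genes closely and are given as a description, since cells were chosen by transcripts of the same phases. Their median log2 difference was 3.36, with a range of 0.16 to 4.91. Among spindle genes, Nusap1, which binds and bundles microtubules, stood at 202, 246 and 219 CPM in cycling and 5.71, 5.40 and 9.49 CPM in non-cycling cells. Kif20a, a kinesin of cytokinesis, stood at 79.9, 104 and 79.8 against 0, 3.60 and 3.79 CPM. The kinetochore gene Cenpf had 196, 324 and 340 against 0, 18.0 and 14.55 CPM. In each of these genes every cycling value lay above every non-cycling value. Among kinases and phosphatases, Cdc25c, which activates the mitotic kinase, differed by 4.14 and the checkpoint kinase Bub1b by 3.80 on the log2 scale. Pttg1, the securin gene, had the smallest difference of the 61 at 0.16.

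Genes of G2 and mitosis are known to share 2 short promoter elements, CCAAT boxes and the cell cycle homology region, which the DREAM and B-MYB-FOXM1 complexes act through. Promoters from RefSeq (GRCm38.p6, 250 bases before to 50 after a gene's start) were available for 50 of the 61 genes, with 52 promoters in all. Those of 4 genes with large differences are printed 5′ to 3′ on the gene's strand to show how these elements lie. Capitals mark matches to CCAAT or to the homology region TTTGAA or TTCGAA, on either strand, so that ATTGG and TTCAAA are the same elements on the other strand. Kif2c, a kinesin that takes microtubules apart, is at chr4:117178723-117179022 (minus strand). Cenpf is at chr1:189688037-189688336 (minus strand). Kif4, a kinesin of chromosome arms, is at chrX:100625815-100626114 (plus strand). Hmmr, a spindle protein, is at chr11:40733388-40733687 (minus strand).
Kif2c: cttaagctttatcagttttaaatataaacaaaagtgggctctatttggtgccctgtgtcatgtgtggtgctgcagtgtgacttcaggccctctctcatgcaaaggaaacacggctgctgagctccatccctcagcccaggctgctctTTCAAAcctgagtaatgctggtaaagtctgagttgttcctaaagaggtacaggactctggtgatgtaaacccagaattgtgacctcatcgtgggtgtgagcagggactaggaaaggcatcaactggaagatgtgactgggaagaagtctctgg
Cenpf: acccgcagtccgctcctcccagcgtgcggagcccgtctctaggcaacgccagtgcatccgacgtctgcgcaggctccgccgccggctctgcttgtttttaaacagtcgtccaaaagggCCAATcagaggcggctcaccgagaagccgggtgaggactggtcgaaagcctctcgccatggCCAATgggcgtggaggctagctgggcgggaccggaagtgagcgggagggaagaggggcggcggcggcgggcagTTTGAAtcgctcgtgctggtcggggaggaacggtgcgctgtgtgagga
Kif4: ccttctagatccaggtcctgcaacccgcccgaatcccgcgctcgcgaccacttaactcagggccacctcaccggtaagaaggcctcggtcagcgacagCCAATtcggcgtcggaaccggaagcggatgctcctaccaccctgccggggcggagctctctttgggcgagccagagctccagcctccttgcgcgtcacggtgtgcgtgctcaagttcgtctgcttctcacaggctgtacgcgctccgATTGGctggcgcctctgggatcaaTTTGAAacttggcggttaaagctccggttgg
Hmmr: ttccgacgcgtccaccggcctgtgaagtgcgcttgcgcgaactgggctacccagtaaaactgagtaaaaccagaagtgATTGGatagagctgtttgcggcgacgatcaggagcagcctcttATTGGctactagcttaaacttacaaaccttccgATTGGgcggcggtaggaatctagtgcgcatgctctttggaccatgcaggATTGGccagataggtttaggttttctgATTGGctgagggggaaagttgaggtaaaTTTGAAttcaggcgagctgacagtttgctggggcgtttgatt
Kif2c held 1 homology region and no CCAAT box. Cenpf and Kif4 held 2 CCAAT boxes each and Hmmr held 5, with 1 homology region in each promoter. Over the 52 promoters of G2 and mitosis genes, 76.9% held CCAAT, 76.9% the homology region and 67.3% both, against 37.4%, 19.2% and 7.52% of all 32851 promoters in the table. The 31 promoters of 28 S-phase genes held the homology region in 16.1%, and one of the E2F motifs TTTCCCGC, TTTCGCGC, TTTGCCGC and TTTGGCGC in 32.3%, against 2.26% of all promoters and 3.85% of those of G2 and mitosis genes. A match is a run of letters and not a shown binding site.

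S-phase genes were less uniform. Transcripts of the rule genes build up from S phase on, so higher levels of these genes are also a description in part. Of 39 replication and repair genes, 28 were higher in cycling cells, against 10.3% of all genes, and 5 were lower, against 7.22%. Their median log2 difference was 0.76, against -0.01 over all genes tested. Clspn, a replication checkpoint gene, rose from 5.71, 9.0 and 2.53 CPM in non-cycling to 50.1, 45.2 and 56.3 CPM in cycling cells (log2 difference 3.30 ± 0.26 SE, edgeR adjusted p = 3.27e-34). Cdc45, a part of the replicative helicase, rose by 2.97 ± 0.28 (edgeR adjusted p = 8.23e-24). The 5 genes called lower were the helicase subunits Mcm2 (-0.60), Mcm4 (-0.34) and Mcm6 (-0.58), the helicase partner Gins2 (-0.79), and the uracil-removing enzyme Ung (-0.50). Other genes of the replicative helicase and its loading were called higher, Mcm7 (0.29) and Cdc6 (1.22), and Mcm3 (0.12) and Mcm5 (0.25) did not pass. The count of 5 fell to 1 without pairing by library, and to 2 with DESeq2 or without placode-enriched library 1. Mcm6 stood at 142, 119 and 114 CPM in cycling and 263, 206 and 146 CPM in non-cycling cells, without overlap.

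**Figure D3:**
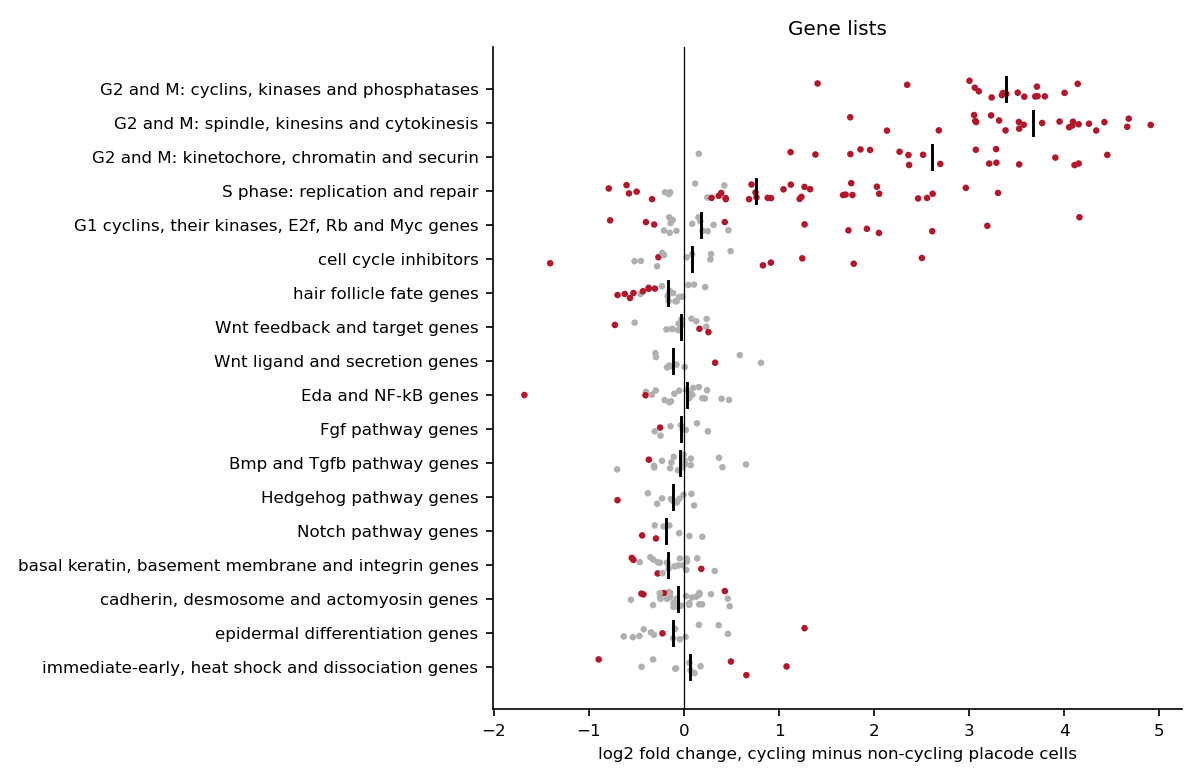
Log2 difference between cycling and non-cycling placode cells for every tested gene of each list, 1 point per gene, with genes past an adjusted p of 0.05 in red and the list's median as a black bar. S-phase genes lie at a median of 0.76 and hair follicle fate genes at -0.17, with 8 of 22 called lower.

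Of 24 tested G1 cyclin, E2f, Rb and Myc genes, 8 were higher, against 10.3% of all genes, and 3 were lower, against 7.22%. With DESeq2 the counts were 5 and 1. Among the genes called higher, Mybl2 went from 0, 1.80 and 1.26 to 39.5, 23.2 and 25.2 CPM, and Foxm1 from 5.71, 2.70 and 1.90 to 18.4, 23.7 and 22.0 CPM. Both encode factors that switch on genes of G2 and mitosis, the phases by which the cells were chosen. Calls of genes in this list that themselves vary over the cycle are therefore a description. Ccne1, cyclin E, rose by 2.05 ± 0.26 on the log2 scale (edgeR adjusted p = 4.15e-14). Of the D cyclins, which act in G1, Ccnd1 and Ccnd2 were lower and Ccnd3 did not pass (-0.14, edgeR adjusted p = 0.43). Ccnd1 stood at 29.9, 27.1 and 23.2 CPM in cycling and 40.0, 54.0 and 36.7 CPM in non-cycling cells (-0.78 ± 0.16, edgeR adjusted p = 3.65e-05). Ccnd2 fell by 0.31 ± 0.04 (edgeR adjusted p = 1.14e-11). Mycl was the third gene called lower (-0.40). Ccnd1 passed in 11 of 14 alternatives. It did not pass with DESeq2, without placode-enriched library 1 or among cells of 15000 to 30000 UMIs, with a highest edgeR or DESeq2 adjusted p of 0.155 and a log2 difference of -0.60 at the smallest.

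Of 17 tested cell cycle inhibitors, 5 were higher in cycling cells, against 10.3% of all genes, and 2 were lower, against 7.22%. Inhibitor transcripts can themselves vary over the cycle by which the cells were chosen, so these counts are a description. Cdkn1c, which encodes the inhibitor p57, stood at 97.5, 55.0 and 53.2 CPM in cycling and 28.6, 33.3 and 32.3 CPM in non-cycling cells, with no overlap (0.83 ± 0.16, edgeR adjusted p = 2.7e-06). It passed the threshold in 14 of 14 alternatives. Cdkn3 (2.5), Cdkn2d (1.79), Pkmyt1 (1.24) and Ccng2 (0.91) were the other genes called higher. Trp53inp1, a p53 target, stood at 3.51, 4.04 and 5.49 against 22.8, 9.0 and 14.55 CPM (-1.41 ± 0.35, edgeR adjusted p = 0.000721). It was not called with DESeq2, without placode-enriched library 2, thinned to 10000 UMIs, among cells of 15000 to 30000 UMIs or at a placode score of at least 8. The non-cycling sum of the total epithelium library held 175096 UMIs, so the 22.8 CPM rests on few of them. The antiproliferative gene Btg1 fell by 0.27 ± 0.04 (edgeR adjusted p = 1.38e-09). Other inhibitor genes did not pass the test. Cdkn1a (p21) had 13.2, 9.36 and 5.80 CPM in cycling and 17.1, 13.5 and 8.85 CPM in non-cycling cells (-0.52 ± 0.33, edgeR adjusted p = 0.312). Cdkn1b (p27) differed by 0.28 (edgeR adjusted p = 0.426), Btg2 by -0.23 (0.379) and Gadd45g by 0.28 (0.132).

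Some genes of hair follicle fate, among them Shh, Gata3 and Sostdc1, took a smaller share of the RNA in cycling cells, and most of the tested members did not pass. Of 39 listed genes, 33 were in the tables and 22 passed the filter on low counts. Of these 22, 8 were lower in cycling cells, against 7.22% of all genes tested, and the median log2 difference was -0.17. In edgeR's test 0 were higher, also at an unadjusted p under 0.05, and with DESeq2 0 were higher and 4 were lower. Shh, the hedgehog ligand of the placode (GRCm38, chromosome 5, 28456815 to 28467256), stood at 34.3, 82.8 and 78.9 CPM in cycling and 109, 139 and 120 CPM in non-cycling cells (-0.70 ± 0.10, edgeR adjusted p = 2.06e-10). Every non-cycling value was above every cycling value. Gata3, a transcription factor of the inner root sheath lineage (chromosome 2, 9857078 to 9890034), stood at 126, 184 and 180 against 251, 290 and 249 CPM, also without overlap (-0.57 ± 0.07, edgeR adjusted p = 1.14e-12). Sostdc1, a secreted Bmp and Wnt inhibitor (chromosome 12, 36314139 to 36318452), stood at 135, 203 and 134 against 286, 330 and 188 CPM (-0.62 ± 0.08, edgeR adjusted p = 1.4e-14). The groups of Sostdc1 overlap, but the cycling value was lower within each library.

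Smaller differences were seen in the other fate genes called lower. Trps1, a repressor needed for hair growth (chromosome 15, 50654752 to 50890463), fell by 0.37 ± 0.09 (edgeR adjusted p = 0.000367). Pthlh, a secreted peptide, fell by 0.43, the neurotrophin Bdnf by 0.37 and the keratin Krt17 by 0.31. Sox9, a stem cell factor, was called lower (-0.53 ± 0.19, edgeR adjusted p = 0.0293), but its levels of 21.1, 23.7 and 21.5 against 11.4, 31.5 and 36.7 CPM do not move one way in all libraries, and it passed in 5 of 14 alternatives. Other members did not pass: Lhx2 differed by -0.08 (edgeR adjusted p = 0.818) and the sorting antigen gene Madcam1 by -0.16 (0.46).

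**Figure D4:**
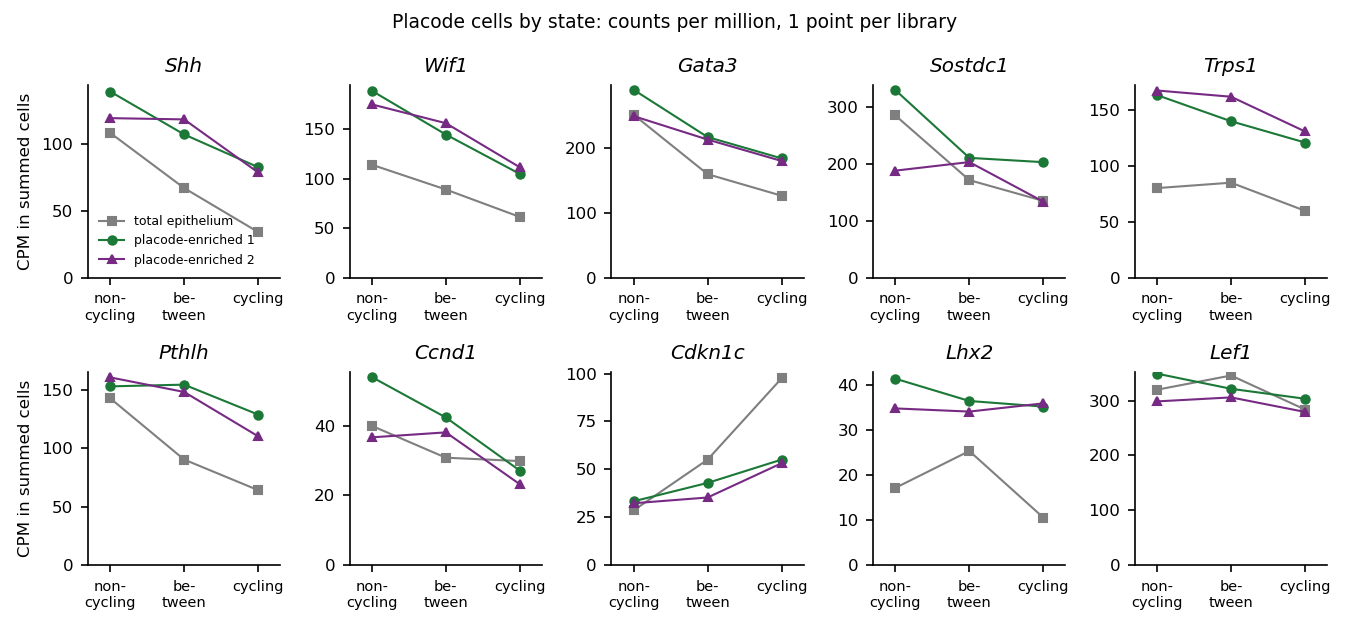
Levels in CPM (from 0, with a scale for each gene) of 10 genes in the summed non-cycling, in-between and cycling placode cells, 1 line per library. Shh, Wif1, Gata3 and Sostdc1 are lower and Cdkn1c is higher in cycling than in non-cycling cells in each library, while Lhx2 and Lef1 did not pass the test.

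A share of RNA can fall while the number of molecules per cell does not. Shh was counted at 0.886, 2.14 and 2.10 UMIs per cycling cell and at 1.58, 2.07 and 1.99 UMIs per non-cycling cell. In the placode-enriched libraries the cycling cells thus held about as many Shh UMIs, in cells with 1.74 and 1.60 times as many UMIs in all. The rule's use of raw UMIs can add to these ratios, so UMIs per cell also depend on how deeply each cell was captured. For the 8 fate genes called lower, the ratio of UMIs per cell (cycling over non-cycling) had a median of 1.01, 1.26 and 1.14. Among cells with 15000 to 30000 UMIs, 3 of the 8 remained called, Shh (-0.39, edgeR adjusted p = 0.0233), Gata3 (-0.34, 0.0052) and Sostdc1 (-0.36, 0.00378), and Sox11 was called higher. Trps1 there had a log2 difference of -0.08. Without placode-enriched library 1, 5 fate genes were called lower. Without the pairing by library, 1 fate gene, Gata3, was called.

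Wnt target genes were called about as often as all genes tested (10.3% higher and 7.22% lower). Of 15 tested, 2 were higher (the receptor gene Fzd10, 0.26, and the Dkk co-receptor gene Kremen2, 0.16) and 1 was lower. The 2 higher calls were lost with DESeq2, without pairing by library, among cells of 15000 to 30000 UMIs, at a placode score of at least 8, and without placode-enriched library 1 or 2. The gene called lower, Wif1, a secreted Wnt inhibitor (GRCm38, chromosome 10, 121033960 to 121100650), stood at 61.5, 105 and 112 CPM in cycling and 114, 189 and 175 CPM in non-cycling cells (-0.73 ± 0.09, edgeR adjusted p = 7.16e-15). Its cycling value was lower in each library and its groups do not overlap. The Wnt effector Lef1 (-0.13, edgeR adjusted p = 0.182) and the direct target Sp5 (0.24, 0.357) did not pass. Among 10 ligand and secretion genes 1 was called higher, Wnt3 (0.33). It was not called with DESeq2, without pairing by library, thinned to 10000 UMIs, at a placode score of at least 8, or without placode-enriched library 1 or 2.

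The remaining signaling pathways had few called members. Of 22 Eda and NF-kB genes 2 were lower, the chemokine Cxcl9 (2.63, 3.71 and 3.45 against 11.4, 10.8 and 12.02 CPM) and the adhesion molecule Icam1 (-0.41). Of 9 Fgf genes 1 was lower, Dusp6, a phosphatase induced by Fgf signaling (-0.25 ± 0.05, edgeR adjusted p = 1.05e-05). Its call was lost without pairing by library and among cells of 15000 to 30000 UMIs, where the difference was -0.05. In the Bmp and Tgfb list 1 of 18 was lower, Tgfb2 (-0.37), and in the hedgehog list 1 of 11, Shh itself. In the Notch list 2 of 8 were lower, Notch1 (-0.44) and its target Hes1 (-0.30), the latter higher in cycling cells of the total epithelium library. Each of these counts is 1 or 2 genes, against 7.22% of all genes called lower. With DESeq2, the Eda and NF-kB, Bmp and Tgfb, and Notch lists had no gene called lower. The Bmp and Tgfb and Notch lists also had none without pairing by library or without placode-enriched library 1 or 2.

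Outside the lists, the genes with the largest positive differences included genes of the kinetochore, spindle and chromosomes. These too are a description, since cells were chosen by transcripts of the same phases. Casc5, which builds the outer kinetochore, stood at 38.6, 67.5 and 72.1 against 5.71, 2.70 and 1.90 CPM, and the kinesin Kifc1, Ncapg of condensin and Dlgap5 of the spindle differed by 4.5, 4.29 and 4.23 on the log2 scale. Oip5, a centromere gene, had 29.9, 25.3 and 20.9 CPM in cycling cells and 0, 1.80 and 0 CPM in non-cycling cells. The histone genes Hist1h2an, Hist1h2ak and Hist1h2af were higher in cycling cells, and Hist1h2bc was lower (9.66, 9.52 and 8.78 against 74.2, 46.8 and 34.8 CPM, -2.20 ± 0.21, edgeR adjusted p = 6.58e-23). Histone genes have near-identical copies, so their counts are uncertain. Of the lower genes, 2 encode claudins of tight junctions, Cldn6 (-1.20) and Cldn7 (-1.17). Further genes called lower were Timp2 (-1.23), which inhibits matrix proteases, Hook3 (-1.18), a dynein adaptor, and 6330403K07Rik (-1.16).

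To ask which differences are particular to the placode, the same contrast was made in other cells and the difference between the contrasts was tested. Of 9153 genes, 8 passed (0.0874%), 7 in the positive (0.0765%) and 1 in the negative direction (0.0109%). In other cells 690 genes were higher in cycling cells (7.54%) and 576 were lower (6.29%). There 7 of 24 tested fate genes were lower, among them Shh at 0.747, 3.71 and 2.28 against 1.48, 6.26 and 11.1 CPM (-1.57 ± 0.47, edgeR adjusted p = 0.0186) and Gata3 (-0.54 ± 0.08). The other cells were chosen for few placode transcripts, so Shh was near the floor there and its value rests on few UMIs. In the placode-enriched libraries they had also passed the MAdCAM-1 sort. For the fate genes, edgeR called 0 differences between the contrasts (lowest adjusted p = 0.16), and 2 genes, Trps1 and Bdnf, had an unadjusted p under 0.05. No other tool was run for it. The lower share of these genes in cycling cells was therefore not shown to be particular to the placode.

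The gene of the 8 with the largest positive difference was Dmkn, a secreted epidermal protein gene (GRCm38, chromosome 7, 30763756 to 30781063). In placode cells it stood at 523, 105 and 97.4 CPM in cycling and 194, 53.1 and 37.9 CPM in non-cycling cells (1.27 ± 0.12, edgeR adjusted p = 4.3e-26). In other cells the difference was 0.19 ± 0.08 (edgeR adjusted p = 0.129), and the 2 differences differed by 1.05 ± 0.16 (edgeR adjusted p = 0.000701). This difference did not pass without the total epithelium library, where Dmkn was highest, nor with cells thinned to 10000 UMIs. Dusp6 fell less in placode cells (-0.25) than in other cells (-0.87), a difference of 0.57 ± 0.11 (edgeR adjusted p = 0.0213).

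**Figure D5:**
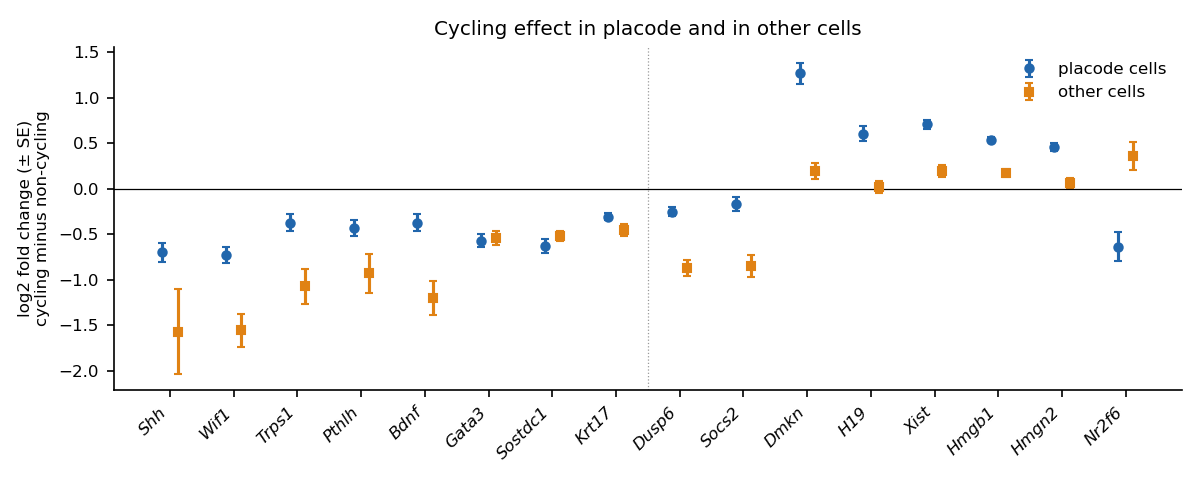
Log2 difference between cycling and non-cycling cells (± SE, 3 libraries) in placode cells (blue circles) and in other cells (orange squares). Left of the dotted line are fate genes and Wif1, and right of it the 8 genes whose differences differ past an adjusted p of 0.05, such as Dmkn at 1.27 in placode cells and 0.19 in other cells.

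Markers of other cell types were measured in the same sums. Summed fibroblast markers (6 of 8 listed genes in the tables) stood at 1160 to 1606 CPM in cycling and 1372 to 1742 CPM in non-cycling cells, with Col1a1 at 0 in non-cycling cells. Immune markers (2 of 5, mostly Cd74) stood at 62.4 to 109 and 131 to 145 CPM, with Fcer1g at 0 in non-cycling cells. Periderm markers (6 of 6) stood at 286 to 473 and 341 to 457 CPM, with Krt6a at 0 in both. Both fibroblast and immune markers were higher in non-cycling cells within each library, and the ranges of the groups overlap for the fibroblast and periderm lists. Melanoblast markers (5 of 6) stood at 2.26 to 6.15 and 1.80 to 5.71 CPM, with Dct at 0 in cycling cells, and Schwann markers (4 of 5) at 4.70 to 6.46 and 8.10 to 12.6 CPM, without overlap. Endothelial, muscle, erythroid and Merkel markers (1, 2, 1 and 1 in the tables) reached at most 5.71 CPM in any sum. The part of these transcripts in the results was not tested.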

How the data were processed

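UMI counts per gene and cell were measured with 10x Genomics 3' chemistry version 2, per the labels' protocols. The deposited values are whole, unnormalized counts made by the authors, who per the submitters' processing notes used Cell Ranger, Seurat and mm10; versions, annotation, strand and cell filters are not given in the sources used here. Barcode endings (1 or 2) were read as the placode-enriched library number; a swap would change only names. The 14656 genes in both tables were used; the rest held 0.00685% and 0.0142% of UMIs. Libraries held 36921755, 34895848 and 38640357 UMIs. The limit on Krt1, Krt10 and Krtdap was under 5 UMIs per 10000, and under 20 in the total epithelium library.

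UMIs were summed per library and state, since cells are not replicates. edgeR 4.0.16 (R 4.3.3; quasi-likelihood, TMM, filterByExpr, library as a block) tested the 6 sums, and the 12 sums of placode and other cells for the difference of the contrasts, with Benjamini-Hochberg adjustment over all genes tested. P-values set the difference between the states within a library against an estimate of its spread over libraries, each a pool of embryos. Differences in level between libraries are taken up by the block, and the spread is estimated in part over all genes. With so few libraries, a small p-value therefore does not show that a gene moved alike in each. Dkk4 (edgeR adjusted p = 1.25e-12) and Epcam (1.99e-13) were called higher, but were lower in cycling cells of the total epithelium library. Both sums of a library come from 1 suspension; their deviations correlated at 0.248, 0.179 and 0.294. DESeq2 1.42.0, other normalization, no filter, left-out libraries, thinning, other limits of the rule and a depth range were alternatives. The procedure was tested on simulated data.

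Scrublet (scanpy 1.11.5, rate 0.05) marked 18, 6 and 2 cells as doublets (1.12%, 0.397% and 0.127%), which is few, so doublets can remain; 5 were cycling placode cells. The call for a few cells depended on numerical rounding in that tool. Marked cells were left out only in an alternative.

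Named were the genes of the rule, 17 genes whatever their result, up to 4 called genes with the largest differences and 1 sign in all libraries from each list, 8 in each direction outside the lists (a few are not reported here), and those of the contrast difference; members of short lists were named after their values were seen, as were other fate genes. Promoters shown were those of G2 and mitosis genes with large differences, 1 listed promoter and a motif match. The members, lists and alternatives were chosen with earlier results of these data known.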

Additional observations from a re-analysis of the deposited data

Results flagged for a closer look

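The difference between cycling and non-cycling cells was not the same in placode and in other cells for 8 genes, by edgeR's test of that difference over 3 libraries. Of these, 7 were higher in the placode contrast: Dmkn by 1.05, Socs2 by 0.65, Dusp6 by 0.57, H19 by 0.55, Xist by 0.48, Hmgn2 by 0.36 and Hmgb1 by 0.33 on the log2 scale. Nr2f6 was lower by -1.03. Socs2, a feedback inhibitor of cytokine signaling, differed by -0.17 in placode cells and -0.85 in other cells, and H19, an imprinted RNA, by 0.60 and 0.02. The chromatin proteins' genes Hmgb1 and Hmgn2 differed by 0.54 and 0.46 in placode cells and by 0.18 and 0.06 in other cells. Nr2f6, a nuclear receptor gene, stood at 28.1, 32.4 and 24.6 CPM in cycling and 45.7, 51.3 and 38.6 CPM in non-cycling placode cells. Xist had 0 UMIs in both placode sums of the total epithelium library, so its value rests on the placode-enriched libraries. Without the pairing by library 0 of the 8 passed, and thinned to 10000 UMIs only Hmgb1 and Hmgn2 of them did.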

How the results depend on the processing

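Counts of genes higher and lower in cycling placode cells were 866 and 606. They were 389 and 62 with no replicate block, 365 and 79 with DESeq2, 655 and 394 with cells thinned to 10000 UMIs, 585 and 233 in cells of 15000 to 30000 UMIs, 981 and 358 with no filter on low counts, and 575 and 287 at a placode score of at least 8. Leaving out a library gave 482 to 953 higher and 181 to 602 lower. Fate genes called lower were 8, and 1 with no replicate block, 4 with DESeq2, 3 in cells of 15000 to 30000 UMIs and 5 to 9 with a library left out. Genes whose contrast differed between placode and other cells were 7 higher and 1 lower. They were 0 and 0 with no replicate block, 5 and 0 thinned, 4 and 0 in the depth range, 7 and 0 with other cells of a score under 4, and 2 to 14 and 0 to 2 with a library left out. The placode minus other share of cycling cells turned from -12.4 to 0.73 points in the depth range, and was -6.58 points with cells thinned to 10000 UMIs. Among genes not called, the log2 difference turned for Lhx2 to 0.011 thinned and 0.19 in the depth range, with -0.24 to 0.014 over left-out libraries. It turned for Btg2 (-0.44 to 0.16 over left-out libraries) and for Gadd45g, to -0.067 thinned and -0.48 in the depth range. Krt15, called higher, turned to -0.066 in the depth range. The cause was not tested. Over the named genes of the placode contrast, 1216 values under alternatives kept direction and side of the threshold, 192 lost the call, 2 gained it and 7 turned. Over the 8 genes whose contrast differed from that of other cells, 26 values kept the call and 38 lost it. Non-cycling cells were few (12) and shallow in the total epithelium library, which limits small differences.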

Other observations

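Genes of adhesion and of the basal layer were called lower about as often as all genes tested (7.22%) or more often. Of 31 tested cadherin, desmosome and actomyosin genes, 3 were lower in cycling placode cells in edgeR's test, Cnn3 (-0.45), the desmosome gene Dsp (-0.43) and Myl6 (-0.21), and Epcam was higher (0.43). Epcam was lower in cycling cells of the total epithelium library, and it did not pass with DESeq2. Of 23 basal keratin, basement membrane and integrin genes, 3 were lower, Plec (-0.55), Lamb3 (-0.53) and Trp63 (-0.28). The count for the basal list was 0 with DESeq2, without pairing by library, and without placode-enriched library 1 or 2, and that for the adhesion list was 1, 0, 1 and 3. Trp63, the master factor of stratified epithelium, stood at 242, 257 and 257 CPM in cycling and 314, 313 and 315 CPM in non-cycling cells. Krt15 was called higher (0.18) but was lower in the total epithelium library.

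Of 12 immediate-early and heat shock genes, 3 were higher in cycling cells (10.3% of all genes), Klf6 (1.08), Hsp90aa1 (0.66) and Hspa8 (0.49), and 1 was lower (7.22% of all genes), Junb (-0.90). The chaperone gene Hsp90aa1 stood at 769, 821 and 795 CPM in cycling and 720, 490 and 500 CPM in non-cycling cells. Of 15 epidermal differentiation genes, Tfap2b was lower (-0.23) and Dmkn higher. Of the tested markers of other cell types, Col1a2 was higher (1.17), and Postn (-0.29), Dcn (-0.14), Cd74 (-0.41) and Krt8 (-1.08) were lower.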
